A study of Mus musculus with 285 samples.

Results

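The 9 genes described here, Pitx1, Irx5, En1, Tbx1, Tbx15, Meis2, Emx2, Pax3 and Twist1, encode transcription factors that place limbs, head and trunk in the embryo. They are position factors outside the Hox clusters. They are 9 of the 11622 genes named on the array, and each was read by 1 probe, so no second probe could check it. The set was chosen by measured values of these data, namely how levels changed along the mouse number and with each other. Levels along the number and correlations between members are therefore descriptions with no test.

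Skeletal muscle RNA of 285 F2 mice, males and females, was measured on 2-colour arrays. Per the labels their parents were F1 animals from crosses between C57BL/6J and C3H/HeJ, with either strain named first. Every mouse received chow (4% fat) up to week 8, then 12 weeks of a Western diet (42% fat, 0.15% cholesterol), and was fasted for 12 hours before death at week 20. RNA of each mouse, labelled with Cy3, was read against a pool of equal parts of RNA from every sample, labelled with Cy5, and no mouse lacked the diet. The labels name neither the muscle that was dissected nor the sex, genotype or cross of a single mouse, so the mice form 1 group, and the only order used is the mouse number in the title, from 51 to 362. Each value below is a log2 ratio of mouse over pool, so it compares mice for one gene and does not compare genes with each other. A ratio to a pool of the same tissue shows whether a marker varies, not whether it is present, so the labelled tissue could not be checked by the presence of muscle markers. In whole tissue, fewer cells of a type and less RNA per cell cannot be told apart.

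Position factors tell cells of the embryo where they lie. Pitx1 gives the hindlimb its identity, Meis2 marks the part of the limb near the trunk, En1 marks the ventral ectoderm of the limb bud and the border of midbrain and hindbrain, and Irx5 belongs to the Iroquois family, which patterns limb, heart and nervous system. Tbx1 acts in the pharyngeal arches and the head muscles they give, Tbx15 in skin, skeleton and muscle, and Emx2 in the forebrain, the urogenital system and the shoulder girdle. Pax3 marks the muscle precursors that migrate into the limb, and Twist1 keeps mesenchyme in an undifferentiated state. Muscles and connective tissue of different body regions are known to keep part of such positional expression in the adult.

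Promoter sequences are given for 4 members whose levels changed along the number, since shared letters upstream are the first thing a reader may look for. Meis2 changed in the opposite direction to En1, Tbx1 and Twist1. RefSeq start sites (build GRCm38.p6) were found for 5 of the 9 members, with 2 windows for Tbx1. The 250 bases before the start were searched on both strands for 6 motifs, which were TAATTA (the homeodomain core), TAATCC (the type bound by Pitx factors), ACANNTGT (Iroquois), TGACAG (Meis), AGGTGT (the T-box core) and CATCTG (an E-box bound by Twist factors). The sequences run 5′ to 3′ on the strand of the gene, and capitals mark a match. The windows are chr1:120602237-120602486 on the plus strand for En1, chr16:18590672-18590921 on the minus strand for Tbx1, chr12:33957421-33957670 on the plus strand for Twist1 and chr2:116064620-116064869 on the minus strand for Meis2.
En1: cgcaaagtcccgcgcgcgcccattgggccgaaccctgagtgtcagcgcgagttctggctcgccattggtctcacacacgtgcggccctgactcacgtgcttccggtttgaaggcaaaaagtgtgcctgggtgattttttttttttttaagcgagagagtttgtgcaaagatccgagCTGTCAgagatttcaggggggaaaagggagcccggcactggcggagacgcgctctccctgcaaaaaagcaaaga
Tbx1: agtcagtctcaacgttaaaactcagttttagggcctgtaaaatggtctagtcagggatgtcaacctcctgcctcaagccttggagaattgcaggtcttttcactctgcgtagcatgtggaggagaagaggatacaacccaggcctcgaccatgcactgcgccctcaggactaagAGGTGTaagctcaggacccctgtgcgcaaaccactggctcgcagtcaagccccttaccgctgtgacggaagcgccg
Twist1: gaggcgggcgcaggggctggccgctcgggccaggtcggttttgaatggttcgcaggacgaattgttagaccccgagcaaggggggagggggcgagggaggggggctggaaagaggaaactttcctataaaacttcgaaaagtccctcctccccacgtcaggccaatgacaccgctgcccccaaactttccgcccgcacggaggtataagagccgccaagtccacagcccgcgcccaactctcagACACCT
Meis2: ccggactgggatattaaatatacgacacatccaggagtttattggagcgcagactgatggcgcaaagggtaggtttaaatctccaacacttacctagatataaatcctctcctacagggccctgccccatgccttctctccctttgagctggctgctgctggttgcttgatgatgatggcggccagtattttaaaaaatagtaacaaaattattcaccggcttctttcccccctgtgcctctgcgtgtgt
En1 held 1 TGACAG on the reverse strand, 74 bases before its start, and this motif occurs in 15.9% of all 32851 windows of this length. Tbx1 held 1 AGGTGT, 76 bases before the start, and Twist1 held 1 on the reverse strand, directly before its start. That motif occurs in 11.8% of all windows. Meis2 held none of the 6 motifs, nor did Emx2 and the other window of Tbx1. The homeodomain, Pitx, Iroquois and E-box motifs occur in 4.84%, 6.25%, 6.31% and 14.4% of all windows and in none of the 6 member windows. No matches overlapped. The letters in capitals are a description of these windows and are not binding sites shown by any measurement here.

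All 9 members varied more between mice than the median named gene, whose SD was 0.21 log2 units. The SD was 0.99 for En1, 0.98 for Irx5, 0.87 for Tbx1, 0.57 for Pitx1 and 0.49 for Twist1. It was 0.33 for Meis2, 0.30 for Emx2, 0.30 for Tbx15 and 0.27 for Pax3. The 95th percentile of all named genes was 0.56, which En1, Irx5, Tbx1 and Pitx1 exceeded.

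Much of this variation followed 2 stretches of mouse numbers, 51 to 90 and 271 to 310, with 76 mice in all. Earlier results of these data had set these stretches apart through low levels of slow muscle fibre genes, and they are called the slow-poor numbers here. The other 209 mice are called the remaining mice.

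Irx5 was lower in the slow-poor numbers. Its log2 ratio there ran from -2.80 through a median of -1.72 to 0.58, and in the remaining mice from -2.26 through 0.21 to 1.39. The ranges overlap only through a few mice: 75 of 76 slow-poor mice lay below the midpoint of the medians, and 203 of 209 remaining mice lay above it. The medians differed by -1.93, which is 3.81-fold.

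Pitx1 and Meis2, which like Irx5 are homeodomain factors of the early limb, were lower in the same numbers by smaller amounts. For Pitx1 the slow-poor mice ran from -1.65 through -0.59 to 0.71 and the remaining mice from -1.37 through 0.06 to 1.85, a difference of -0.65 with wide overlap. Meis2 ran from -0.97 through -0.47 to 0.62 against -0.74 through 0.06 to 0.57, a difference of -0.53. Although the shift of Meis2 was the smaller of the pair, it separated the mice better: 71 of 76 and 182 of 209 lay on their own side of the midpoint, against 54 of 76 and 147 of 209 for Pitx1. Emx2 differed by -0.25 with its ranges overlapping over most of their width, from -0.65 through -0.27 to 0.26 against -0.72 through -0.02 to 0.62.

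En1 and Tbx1 went the other way. Tbx1, a T-box factor of the pharyngeal region, ran from -0.32 through 1.12 to 1.64 in the slow-poor numbers and from -2.14 through -0.62 to 1.17 in the remaining mice, a difference of 1.74 or 3.34-fold. On their own side of the midpoint lay 75 of 76 and 201 of 209 mice, close to the counts for Irx5. En1 ran from -1.06 through 1.31 to 2.01 against -1.96 through -0.50 to 1.92, a difference of 1.81. Here the overlap was broader, with 73 of 76 and 174 of 209 on their own side, because some of the remaining mice were high too.

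Twist1, the mesenchymal factor, was higher by 0.79, from -0.24 through 0.54 to 1.40 against -1.18 through -0.25 to 0.72. Pax3, the factor of migrating muscle precursors, was higher by 0.26, and Tbx15 by 0.15, with wide overlap for both. In all, 6 of the 9 members differed by at least 0.5 log2 units between these sets, while 0.893% of the 21512 features on the array did. The members were chosen with this contrast in view, so nothing is read from that count.

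Both stretches showed the same signs for every member except Tbx15. Its median was -0.05 in numbers 51 to 90 and 0.37 in numbers 271 to 310. Instead of following the slow-poor numbers it was higher at higher numbers. Its run medians lay between -0.25 and -0.00 in every run of 20 numbers up to 230, and between 0.15 and 0.45 in every run from 231 on, slow-poor or not. Pax3 had its highest level at the start, with a median of 0.29 in numbers 51 to 90 and 0.12 in numbers 271 to 310. The plot of levels by mouse number shows the abrupt edges of Irx5 and Tbx1 beside the single step of Tbx15.

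**Figure D1:**
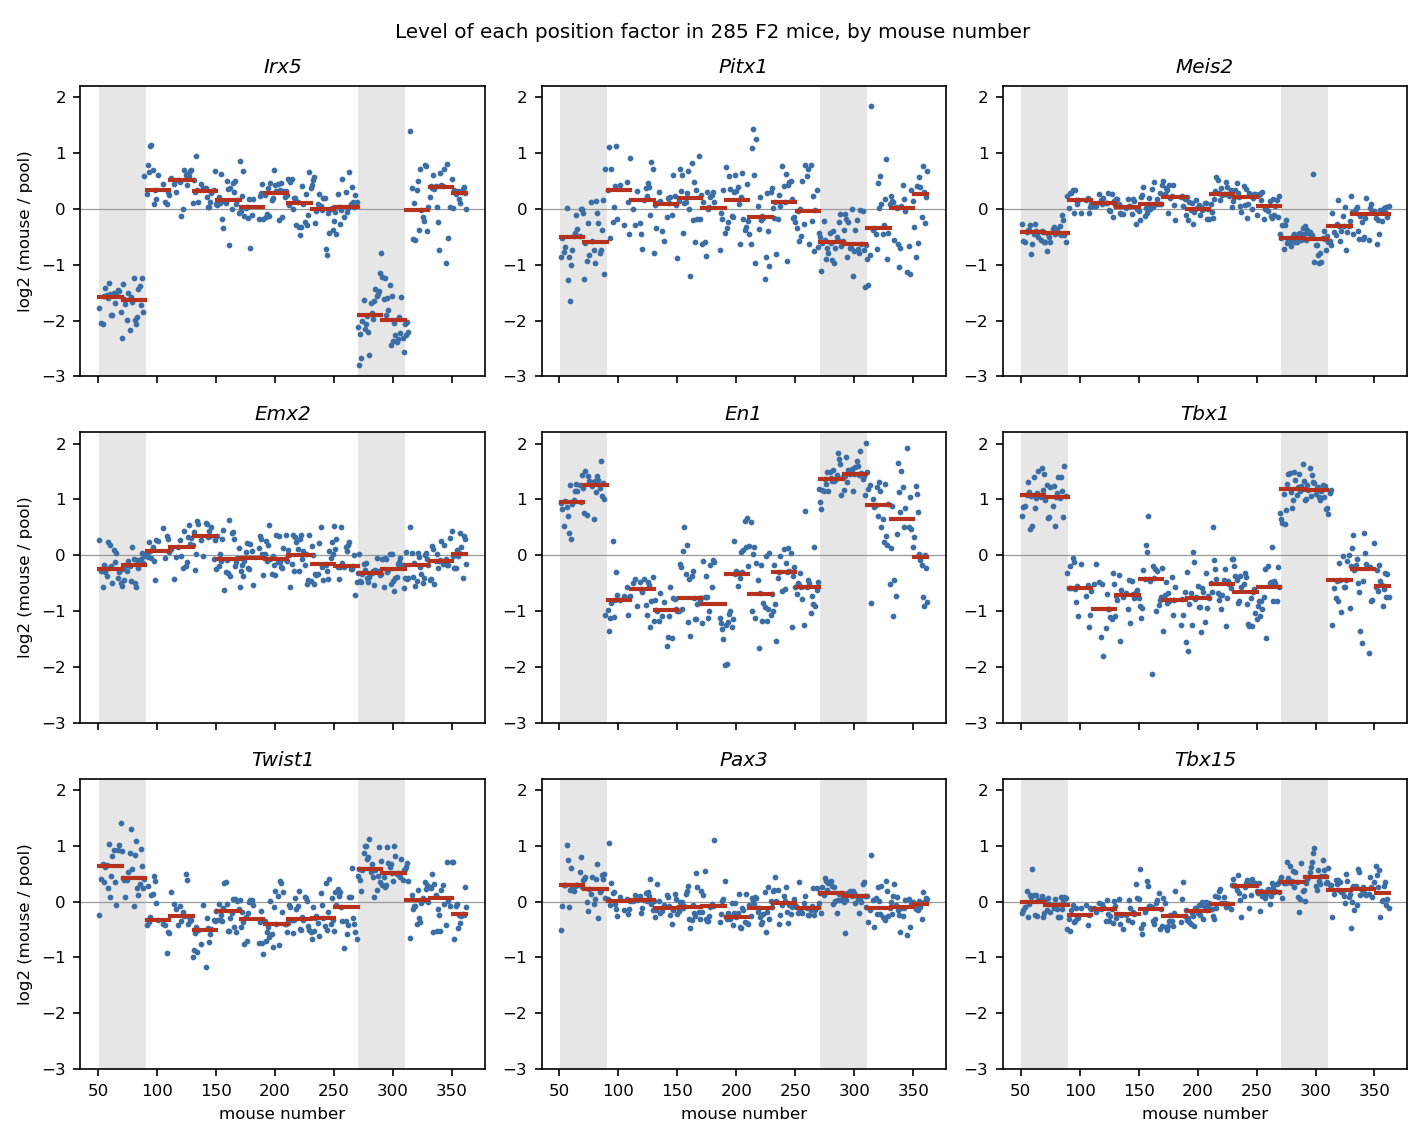
Log2 ratio of mouse over pool (vertical axis) of each of the 9 genes in 285 mice against mouse number (horizontal axis). Points are mice, red bars are medians of runs of 20 numbers, and grey bands are numbers 51 to 90 and 271 to 310. Irx5 has medians of -1.61 and -1.93 in the bands and 0.21 in the remaining mice.

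The edges were sharp for single mice, and 5 mice, all at or near an edge, lay on the wrong side of the number limits. Mouse 89 lies inside the first stretch and had Irx5 at 0.58, Pitx1 at 0.71, En1 at -1.06 and Tbx1 at -0.32, levels of the remaining mice. Not every member crossed in mouse 89: Twist1, at 0.41, and Pax3, at 0.065, lay on the slow-poor side of their midpoints, 0.15 and 0.052. The neighbouring mouse 88 had Irx5 at -1.84 and Tbx1 at 1.06. Mice 270, 311, 312 and 313 lie outside the limits and had Irx5 at -2.11, -2.26, -2.03 and -2.20, with En1 between 1.19 and 1.48 and Tbx1 between 0.75 and 1.17. These 5 mice were picked after their values were seen. Without them the differences of the medians were -1.94 for Irx5, 1.84 for En1 and 1.76 for Tbx1. Mouse 314, next to them, held the highest levels of Pitx1, at 1.85, and of Irx5, at 1.39, among all 285 mice, with En1 at -0.85 and Tbx1 at -1.26.

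In numbers 311 to 350 En1 parted from Irx5 and Tbx1. In its 37 mice En1 ran from -1.09 through 0.84 to 1.92, and 32 of them were above the pool. Tbx1 had a median of -0.44 and Irx5 of 0.22 in the same mice, close to their medians in the remaining mice. By its medians this stretch had high En1 with neither low Irx5 nor high Tbx1, although mice 311, 312 and 313 had both, and 5 of the 37 mice had En1 below the pool. Tbx15 was above the pool in 31 of the 37. Meis2 was low there too, with a median of -0.27 and 29 of 37 mice below the pool, and Pitx1 had a median of -0.05. In numbers 351 to 362 En1 fell on both sides of the pool, with 6 of 12 mice above it.

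**Figure D2:**
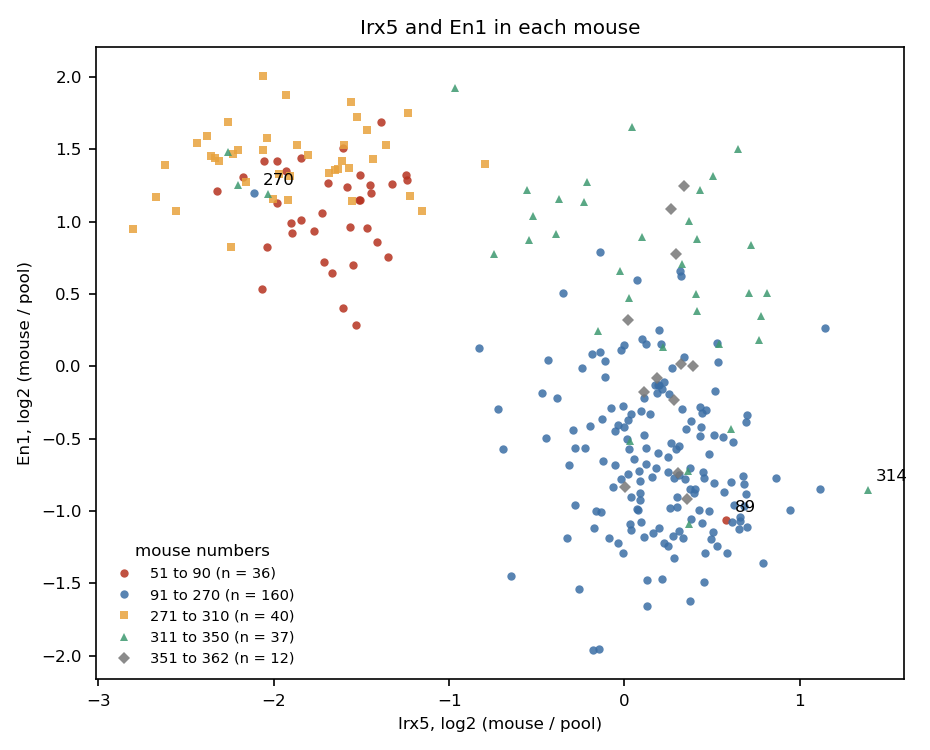
Log2 ratio of En1 (vertical axis) against that of Irx5 (horizontal axis) in each mouse, with symbols for 5 stretches of mouse numbers. Mice 51 to 90 and 271 to 310 lie at the upper left, mice 91 to 270 at the lower right (En1 median -0.69), and most mice 311 to 350 at the upper right (En1 median 0.84, Irx5 median 0.22).

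Slow fibre and tendon genes changed along with these numbers, and their part in the levels of the 9 genes was not tested. The slow-poor numbers were set apart by low slow fibre genes in these same data, so the slow fibre differences restate that choice. There, 7 of 8 measured slow fibre genes were lower by at least 0.5, a limit that 0.893% of all features passed in either direction. The mean level of the slow fibre genes ran from -3.10 through -2.08 to 0.53 against -2.13 through 0.12 to 1.27. Myh7, the slow myosin heavy chain, differed by -3.47, and Tnnt1, the slow troponin T, by -3.21. For Myh7, 57 of 76 slow-poor mice and 207 of 209 remaining mice lay on their own side of the midpoint of the medians. Of 9 measured tendon genes 7 were higher, with a mean level from -1.04 through 1.10 to 1.67 against -1.27 through -0.45 to 1.44. Among them Kera was 3.13 and Tnmd 2.26 higher. In numbers 311 to 350 the slow fibre genes had a median of 0.17 and the tendon genes of 0.19, the former like the remaining mice and the latter between both sets.
Of the other marker lists, 1 of 15 matrix genes (Mmp2) and 1 of 9 satellite cell genes (Myod1) passed 0.5, and none of 5 fast fibre, 6 Schwann cell, 4 white adipocyte, 9 macrophage and 6 keratinocyte genes did. The mean level of the macrophage genes ran from -0.48 through 0.17 to 0.78 against -0.82 through -0.10 to 0.50, with wide overlap.

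Members that move together were looked for next. Because the mice fall into separate sets, a correlation over all of them mainly repeats the difference between sets, and values within sets are given instead. Over all 285 mice 11 of 36 pairs had an absolute Pearson r of at least 0.5, and with the median of each run of 20 numbers subtracted no pair did. The median absolute r over pairs was 0.40 over all mice, 0.20 in the 209 remaining mice, 0.21 in the 76 slow-poor mice, and 0.14 within runs. All mice share the reference pool, and r is given with no p.

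En1 and Meis2 ran opposite in both sets, with r of -0.59 in the remaining mice and -0.30 in the slow-poor mice, and -0.31 within runs. The mice 311 to 350, counted among the remaining mice, joined high En1 with low Meis2. En1 and Tbx1 went together in the slow-poor mice (r 0.61), less so in the remaining mice (0.26) and at 0.16 within runs. Mouse 89 carries the lowest value of both genes in the slow-poor set, and without the 5 misplaced mice the r within runs was 0.047. Tbx1 and Twist1 had 0.19, 0.41 and 0.31 in the same order, and 0.26 without the 5 mice.

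For Irx5 and Tbx1 the r over all mice was -0.75. It was 0.026 in the remaining mice, -0.12 in the slow-poor mice and 0.063 within runs. The 5 misplaced mice, whose Irx5 and Tbx1 levels were those of the other set, were kept in these values. Without the 5 mice the r of Irx5 and Tbx1 was 0.50 within runs over 280 mice. Those mice were picked by their own Irx5 and Tbx1 levels, so the size of this value depends on that choice. The rank correlation (Spearman rho) of Irx5 and Tbx1 within runs was 0.40 over all 285 mice, with none left out. Irx5 also went with Pax3, with r of 0.41 in the remaining mice, 0.059 in the slow-poor mice and 0.31 within runs (0.40 without the 5 mice). Pitx1 and Irx5 had 0.42, 0.19 and 0.35, and 0.29 without the 5 mice. For each pair the 2 mice farthest from the median of 1 gene, the one listed earlier at the start, were left out. This changed no pooled r by more than 0.040, and outlying mice of the other gene were not left out.

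**Figure D3:**
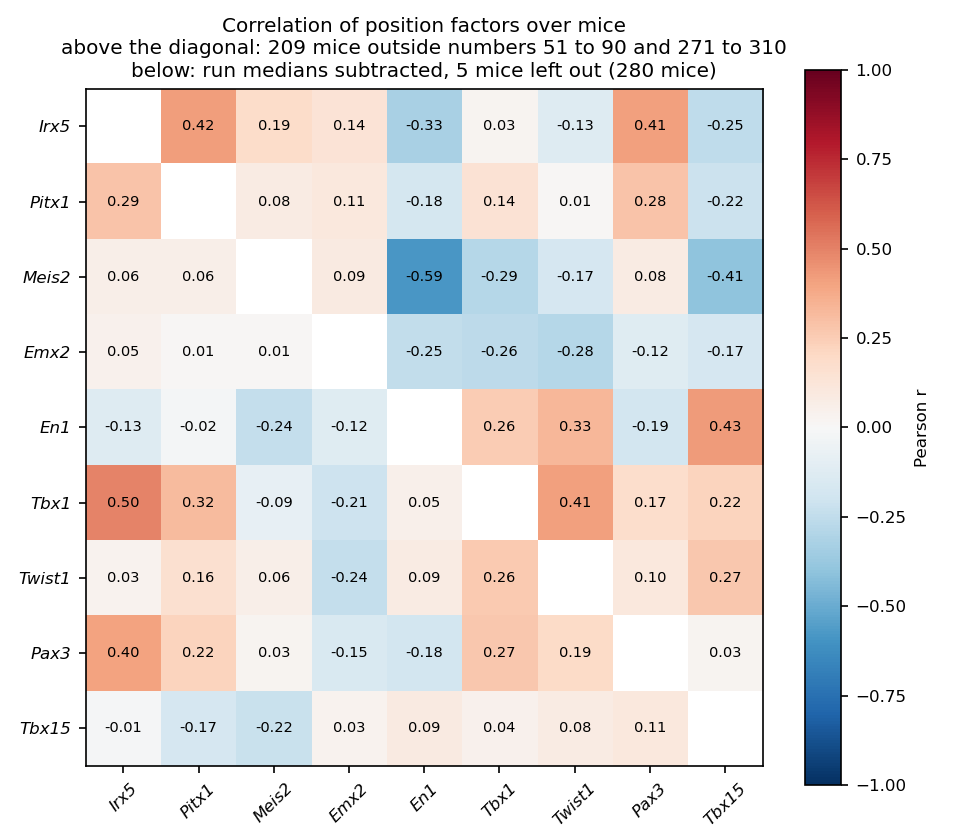
Pearson r for each of the 36 pairs of the 9 genes, as colour and number. Above the diagonal it covers the 209 mice outside numbers 51 to 90 and 271 to 310, and below it 280 mice with the median of each run of 20 numbers subtracted. En1 with Meis2 (-0.59) is the strongest pair above the diagonal and Irx5 with Tbx1 (0.50) the strongest below it.

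For each member the 3 named genes with the largest absolute r over all 285 mice were taken as nearest, and the r within runs is given beside it. Osr2, a factor of limb and palate mesenchyme, was nearest to Irx5 (0.84, within runs 0.55), Pitx1 (0.56, within runs 0.40) and Meis2 (0.78, within runs 0.35). The misplaced mice were kept in each r within sets or runs for genes and gene lists outside the members. Such values are therefore not free of the difference between sets, and the size of its share was not tested. Osr2 was at 0.60 in mouse 89 and at -1.37 in mouse 270, each a level of the other set. Irx5 was followed by Wif1, an inhibitor of Wnt signals (-0.80, within runs -0.52), and by Hoxd9 (0.79, within runs 0.43). Pitx1 was followed by Irx5 itself and by Gsc, a homeodomain factor (0.48, within runs 0.27), and Meis2 by En1 and Tbx1.

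En1 had 3 tendon and cartilage matrix genes nearest, Chad, Fmod and Kera, at 0.83, 0.83 and 0.82. Within runs these were 0.53, 0.51 and 0.48. The misplaced mice were kept here too, with Kera at 2.14 in mouse 270 and 2.26 in mouse 311, levels of the slow-poor mice. The mean of the 9 tendon genes had an r with En1 of 0.76 in the remaining mice, 0.43 in the slow-poor mice and 0.53 within runs, and for no other member did it reach 0.4 within runs. Tbx1 had Slc8a1, a sodium calcium exchanger (0.79, within runs 0.38), Hoxc6 (0.79, within runs 0.46) and the slow troponin gene Tnnc1 (-0.77, within runs -0.19). Pax3 had slow fibre genes, Myl2 and Myoz2 (both -0.49, within runs -0.35 and -0.31), and Dkk3 (0.49, within runs 0.36). The mean of the 8 slow fibre genes had an r with Irx5 of 0.71 over all mice. In the remaining mice it was -0.012, in the slow-poor mice 0.16 and within runs 0.033. With En1 it was -0.56, 0.034, 0.029 and -0.011 in the same order. Within runs it was largest in size for Tbx15 (-0.35), Pax3 (-0.31) and Twist1 (-0.28).

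Twist1 and Emx2 kept most of their relations inside the runs. Twist1 had Dse, an enzyme that makes dermatan sulfate, at 0.80 and within runs 0.67, then Gpsm2 (0.78, within runs 0.58) and Penk (0.76, within runs 0.59). Emx2 had Sntb1, a syntrophin, at 0.80 and 0.74 within runs, then Clasrp (0.73, within runs 0.66) and Car1 (0.70, within runs 0.67), none of them a position factor. Tbx15, the gene that was higher at higher numbers, had Rdx (0.68, within runs 0.41), Emc8 (-0.67, within runs -0.30) and Nme4 (-0.66, within runs -0.46).

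Genes next to the members on the chromosome did not generally share their levels. Of 18 nearest neighbours in RefSeq, 13 were measured and 1 differed by at least 0.5 between the sets, as did 0.893% of all features. That gene was Irx3, which lies beside Irx5 on chromosome 8 in the same Iroquois cluster: it differed by -0.55 in the slow-poor numbers, and its r with Irx5 was 0.50 over all mice and 0.48 within runs. Its overlap was wide, with 51 of 76 and 129 of 209 mice on their own side of the midpoint. Irx6, on the other side of Irx5, differed by -0.02. Around Tbx1 on chromosome 16, Gnb1l and Gp1bb differed by 0.02 and -0.03, and around En1 on chromosome 1, Marco and Insig2 by -0.02 and 0.09.

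A wider list of 57 measured position factors gave the setting for the 9, and it too was written with earlier results known. Of these, 4 were higher and 3 lower by at least 0.5 in the slow-poor numbers. That is 12.3% of the list, against 0.893% of all features, and nothing is read from that count, given how the list was written. The median absolute difference of the list was 0.05 against 0.04 over all features. Zic1, a zinc finger factor of dorsal trunk and nervous system, was 1.02 higher. Meox1, a somite factor, was 0.88 higher, En2, the relative of En1, 0.80, and Prrx2, a limb mesenchyme factor, 0.76. Osr2, Gsc and Irx3 were lower, with differences of -1.37, -0.76 and -0.55. Close relatives of the members followed to different degrees: Twist2 was 0.39 higher beside Twist1 while Meis1 differed by -0.03 beside Meis2. Tbx5, a factor of the forelimb, differed by 0.01.
En1 and En2 were both high in numbers 51 to 90, with medians of 1.14 and 0.72. In numbers 271 to 310 En1 had a median of 1.43, while En2 lay near the pool, at 0.07 with 15 of 40 mice below it. They parted further in numbers 311 to 350, where En2 had a median of -0.80 and 35 of 37 mice below the pool. Zic1 had a median of 0.56 there but varied widely, from -0.98 to 2.22, with 13 of 37 mice below the pool. Irx2 was raised only in part of that stretch: its median was 1.65 in the run from 331 to 350 and at most 0.22 in every other run.

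Among 21 measured signalling genes of limb and body patterning, Dkk3, a secreted protein of the Dickkopf family, was 1.51 higher and Lefty1, a Nodal antagonist, 0.50 higher, and none was lower by 0.5. These genes are 9.52% of that list, against 0.893% of all features past the limit. Fgfr2, Cyp26a1 and Gdf5, which also had large SD values, differed by -0.02, 0.21 and 0.04. Of 29 measured Hox genes 4 passed 0.5, which is 13.8%, against the same 0.893% of all features. Hoxa11 was 0.89 and Hoxc6 0.75 higher, and Hoxd4 and Hoxd9 were lower, with differences of -0.59 and -0.52. Hoxc11 and Hoxd3, the others with large SD values, passed it in neither direction. Hoxa11 resembled En1 rather than Tbx1: its median in numbers 311 to 350 was 1.86, and its r within runs was 0.58 with En1 and -0.065 with Tbx1. In the run from 191 to 210 the medians of Hoxa11 and En1 parted, at 0.48 and -0.33. Hoxc6 resembled Tbx1, at 0.46 within runs, against 0.16 with En1.

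**Figure D4:**
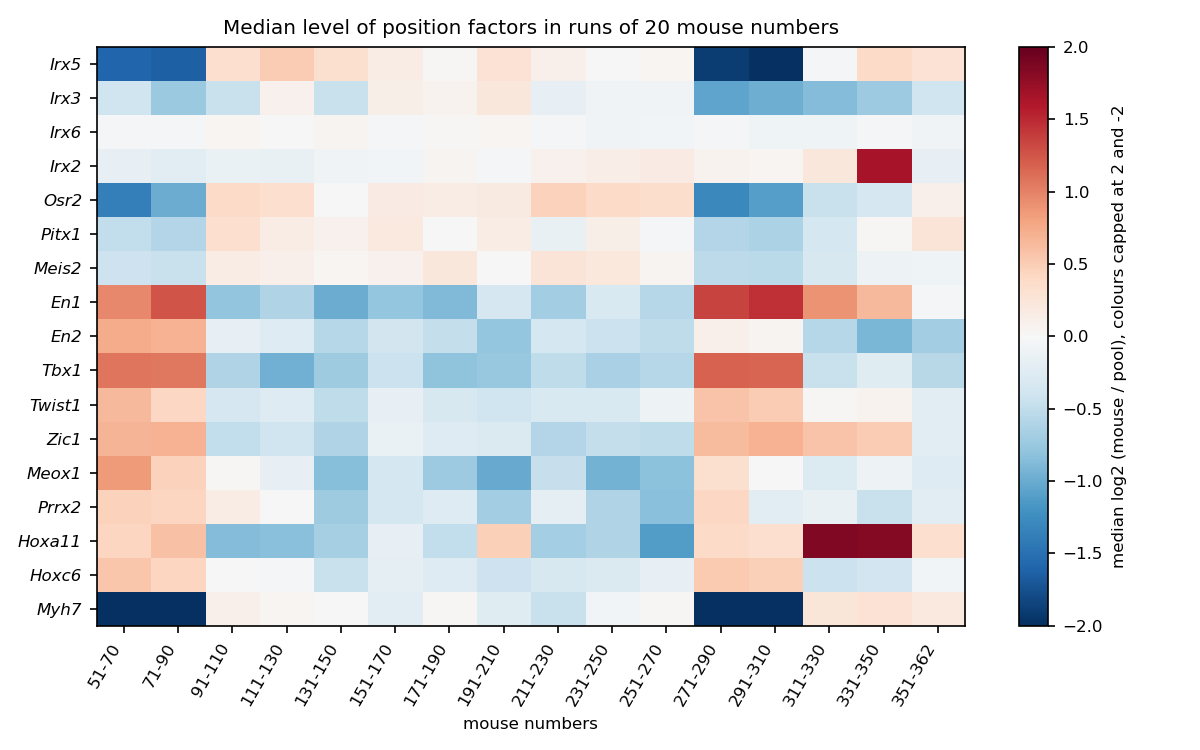
Median log2 ratio of mouse over pool (colour, limited to 2 and -2) of 17 genes in runs of 20 mouse numbers (horizontal axis). Irx5 and Myh7 are low in 51 to 90 and 271 to 310 alone, while En1, Zic1 and Hoxa11 are also high in 311 to 350. Hoxa11 is raised in 191 to 210 too (median 0.48).

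Relations that the choice of members did not use were tested next. Mean levels of 3 gene lists served as scores for tissue make-up: collagen and other matrix genes, Schwann cell genes, and genes of oxidative phosphorylation. For every feature, limma fitted the level on the score with each run of 20 numbers as a factor, so only differences inside runs count, and p-values were adjusted over all 21512 features by Benjamini-Hochberg, with 0.05 as the limit. Coefficients are log2 units per SD of the score. Each score goes with a large part of the array, so the counts of members are set beside the share of all features that passed in the same direction.

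With the matrix score, 4 of 9 members rose, against 16.0% of all features, and none fell, against 32.1%. No member fell at an unadjusted p under 0.05 either. Twist1 rose most, by 0.25 ± 0.02 (SE) per SD, with a limma adjusted p of 1.62e-29. Pitx1 rose by 0.13 ± 0.04 (limma adjusted p = 0.00149), En1 by 0.12 ± 0.04 (0.00527) and Tbx1 by 0.07 ± 0.03 (0.0455). The call for Twist1 held under every alternative run. Those for Pitx1, En1 and Tbx1 did not: in the mice from the median number up their coefficients were -0.01, 0.12 and 0.01, none past the limit, and for Pitx1 the sign turned. In the wider list 14 of 57 position factors rose and 15 fell, with Prrx2 (0.40 ± 0.02) and Meox1 (0.25 ± 0.03) among those that rose. Signalling genes gave 4 rising (Lefty1, Bmp7, Gli1 and Wnt5a) and 6 falling of 21, and Hox genes 3 rising (Hoxb2, Hoxc6 and Hoxd12) and 11 falling of 29.

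Along the Schwann cell score none of the 9 rose, also at an unadjusted p under 0.05 in limma, and 3 fell, against 20.7% and 14.3% of all features. Tbx1 fell by 0.11 per SD (SE 0.03, limma adjusted p = 0.00313), Tbx15 by 0.05 (SE 0.02, limma adjusted p = 0.0119) and Pax3 by 0.05 (SE 0.02, limma adjusted p = 0.0270). Each of these calls was lost below the median number, above it, or on both sides. In the wider list more rose than fell, as among all features: 16 of 57 rose and 3 fell. Those that fell were En2 (-0.13), Tcf15 (-0.09) and Lbx1 (-0.05). Signalling genes gave 7 rising and 2 falling, Lefty1 (-0.14) and Wnt5a (-0.06), and Hox genes 3 rising (Hoxd11, Hoxb3 and Hoxa5) and 3 falling (Hoxc6, Hoxd12 and Hoxd13).

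The oxidative phosphorylation score took in most of the array, with 39.6% of features rising and 35.9% falling, so a call along it sets a gene apart little. Emx2 rose by 0.10 ± 0.02 per SD (limma adjusted p = 2.10e-09). Twist1 fell by 0.17 (SE 0.02, limma adjusted p = 5.09e-16), Tbx1 by 0.07 (SE 0.03, limma adjusted p = 0.0129) and Pax3 by 0.05 (SE 0.02, limma adjusted p = 0.00229). With the first principal component of the array as a covariate none of the 4 calls was kept, and the coefficients of Emx2 and Tbx1 turned to -0.03 and 0.05. Of the wider list 21 rose and 28 fell, of the signalling genes 10 rose and 5 fell (Wnt5a, Lefty1, Gli1, Bmp7 and Cyp26a1), and of the Hox genes 13 and 8.

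Irx5 and Meis2 passed the limit along none of the 3 scores. The coefficients of Irx5 were -0.04 ± 0.03, 0.01 ± 0.03 and -0.01 ± 0.03 (SE) for matrix, Schwann cell and oxidative phosphorylation, and those of Meis2 were 0.02 ± 0.01, 0.01 ± 0.01 and -0.01 ± 0.01. A coefficient that misses the limit does not show that a gene is unrelated to a score.

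**Figure D5:**
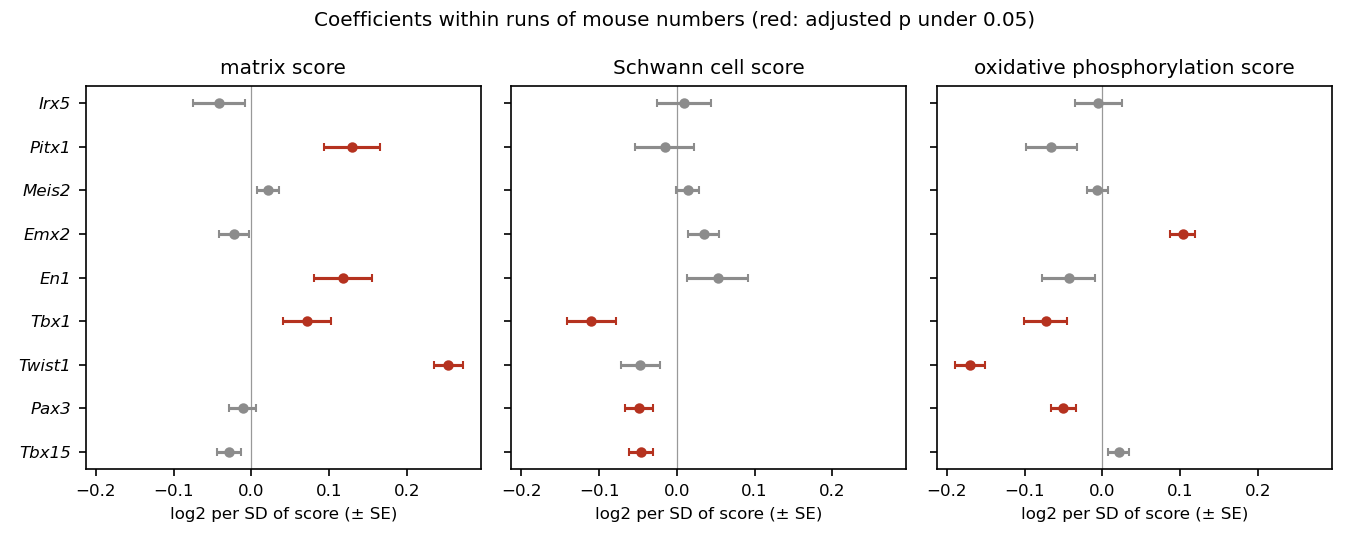
Coefficient in log2 units per SD of each score (horizontal axis, bars are SE) for the 9 genes, fitted with limma within runs of 20 mouse numbers. Red points passed the adjusted limit of 0.05; Twist1 lies farthest from 0 for the matrix score (0.25) and for oxidative phosphorylation (-0.17).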

How the data were processed

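The authors deposited 1 value per probe and mouse, read here as a log10 ratio of mouse over pool. The labels state the dyes but neither base nor sign. Mean linear ratios of the Y-linked genes Eif2s3y and Kdm5d were 0.796 and 0.942 in this reading and 23.2 and 3.43 with the sign turned. Between arrays the median r was 0.0748 (range -0.745 to 0.801, 2.48% of pairs below -0.3), and single mice can oppose a pool, so the direction was kept. Array medians lay between -0.0222 and 0.0173 as deposited, so arrays were centred by steps not given in the sources used here, and values end at 2 and -2. Folds assume base 10. Signal over background is unknown, and the number of arrays limits the precision.

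Of 23560 probes, 23510 had a value on 80% of arrays or more and were kept, 0.0972% missing values were set to the probe mean, values became log2, and several probes of a gene were averaged, which left 11622 named genes beside 9890 unnamed probes. Symbols came from the platform table (13653 probes with 1 symbol, 48 with several, 9859 with none), updated by Entrez identifier for 12650. The 9 members had no missing value and none at a bound.

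The members, lists and number limits were chosen with earlier results of these data known. The genes named are the 9 members, their 3 nearest genes each, the 5 position and 5 signalling genes and 4 Hox genes with the largest SD, Myh7 and Tnnt1, genes in counts of at most 5, and, chosen after their values were seen, relatives and neighbours of members. Runs of 20 numbers held 12 to 20 mice (16 runs). Scores are the mean of standardised list genes, without the gene under test. Fits used limma 3.58.1 in R 4.3.3, checked on simulated data. Correlations used Python 3.11.15 and pandas 2.3.3. The labels do not say whether the mice were independent in litter or batch. The p-values treat them as independent and set each coefficient against the spread between mice inside runs. Only the mouse number and 4 repeat marks are given for arrays.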

Additional observations from a re-analysis of the deposited data

How the results depend on the processing

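Of 90 level differences under alternatives, 85 moved by less than 1 SD. The other 5 came from reading the deposited values in base 2, which shrinks every log2 value alike: Irx5 -0.58, En1 0.55, Tbx1 0.52, Twist1 0.24 and Meis2 -0.16. Pairs with an absolute r of at least 0.5 numbered 11 over all mice and 0 with medians of runs of 10 or 20 numbers subtracted, also without mice 89, 270, 311, 312 and 313, and 4 with runs of 40. Signs turned for Irx5 with Tbx1 (0.057 and 0.063 in runs of 10 and 20, and 0.496 without the 5 mice), for Irx5 with Twist1 (0.034 without them), and for Meis2 with Twist1 (0.015 in runs of 20, 0.062 without them).

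When the mice were split at the median number, counts of features passing changed by over 1.5 times in these cases: along the Schwann cell score 1129 rising and 727 falling below the median number and 2409 and 1123 from it up, along the matrix score 1439 and 712 from it up, and along oxidative phosphorylation 4954 falling from it up. Below the median number more passed along matrix, 4336 rising and 7489 falling, against 3446 and 6905 in all mice. With the first component as a covariate 3585 fell along matrix, and 1393 rose and 1403 fell along oxidative phosphorylation.

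Member counts changed as follows. Along matrix 1 rose from the median number up; 1 fell with arrays scaled to equal SD, without arrays of outlying SD, or with a spline of the number, 2 fell below the median number, and 3 fell with no number term. Along Schwann cell 1 rose with no number term, and 1 fell on each side of the median number. Along oxidative phosphorylation 2 rose with equal SD or below the median number, 3 rose and 5 fell with no number term, 0 rose and 0 fell with the first component, and 1 fell from the median number up. Coefficients that turned were Pitx1 along matrix (-0.0151 with no number term, -0.0135 from the median number up) and, along oxidative phosphorylation, Emx2 (-0.0294) and Tbx1 (0.0468) with the first component, and Tbx1 (0.00369) and Pax3 (0.0134) from the median number up. A further 18 of 132 coefficients missed the limit with the same sign. The cause was not tested. No paired analysis was possible because the mice form 1 group. The settings with the 5 mice left out, with numbers outside the slow-poor stretches only, and with numbers 91 to 270 as the other group were chosen after seeing the data.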

Other observations

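Irx2, an Iroquois factor outside the 9 genes, had an SD of 0.47 in numbers 91 to 270 and reached 3.63 in mouse 335. Its log2 ratio in numbers 311 to 350 ran from -0.92 through a median of 0.62. Its r with Irx5 was 0.14 over all mice and 0.11 within runs, so Irx2 did not follow the course of Irx5 along the number. Irx3 did in part, with r of 0.50 and 0.48 to Irx5 and a difference of -0.55 in the slow-poor numbers. It parted from Irx5 in numbers 311 to 350, with a median of -0.84 and 36 of 37 mice below the pool. Irx5 had a median of 0.22 there. Osr1, the relative of Osr2, was below the pool in 36 of 37 mice of numbers 311 to 350, with a median of -0.49, against -0.36 in numbers 271 to 310. Fgfr2 owed its large SD to mouse 309, at 6.64, the upper bound of the deposited scale. Twist1 also went with the mean of 9 macrophage genes, with r of 0.56 in the remaining mice, 0.36 in the slow-poor mice and 0.53 within runs.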
